A study of Homo sapiens with 7 samples.

Results

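The 8 loci described here produce RNAs that are not translated, and several of them also carry the genes of smaller RNAs: MIR17HG, DLEU2, SNHG1, GAS5, MALAT1, NEAT1, H19 and MEG3. A MYCN binding site was counted for a locus when its summit, the position of highest signal within a called peak, lay inside a window that spans the gene and about 10 kb on each side on hg19. In this way 59 of the 64657 summits of the list were assigned, in 33 of its 47765 peak intervals. The windows covered 392 kb in all, from 23 kb at H19 to 164 kb at DLEU2.

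Binding of MYCN was mapped by ChIP-seq, the sequencing of chromatin fragments pulled down with an antibody, in the human neuroblastoma cell line Kelly, in which MYCN is amplified and the kinase ALK carries an activating mutation. Kelly cells resistant to TAE684, an ALK inhibitor, were held in 1 µM TAE684 for 48 h and gave 2 ChIP and 2 input samples. TAE684-sensitive cells received the solvent DMSO for 48 h and gave 2 ChIP samples and 1 input sample, the input being chromatin sequenced without an antibody. Each state came with 1 peak list for both of its ChIP samples, and all 64657 rows of the resistant list were identical to those of the sensitive list and carried its peak names, so every value below refers to the sensitive cells and no value has a replicate error. No binding in resistant cells was analysed here, and no test between states was made.

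MYCN is a basic helix-loop-helix factor that binds DNA together with MAX, mainly at E-box sequences such as CACGTG near gene starts. MYC family proteins are known to act on noncoding RNA as well as on protein-coding genes. The best known example is MIR17HG, whose transcript is cut into the miR-17-92 microRNAs, and which is a classical direct target of MYC and MYCN. DLEU2 is the host transcript of miR-15a and miR-16-1. SNHG1 and GAS5 carry small nucleolar RNAs (snoRNAs), which guide the chemical modification of ribosomal RNA, in their introns. MALAT1 and NEAT1 are abundant nuclear RNAs, the first found in nuclear speckles and the second the scaffold of paraspeckles. H19 and MEG3 are imprinted genes, each transcribed from the maternal chromosome.

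The microRNAs of the MIR17HG and DLEU2 transcripts are shown first, because they are the products of the loci with the widest MYCN intervals. The mature sequences are from RefSeq (GRCh38.p14), and capitals mark the seed, bases 2 to 8, which pairs with target messages. The 6 MIR17HG microRNAs fell into 4 seeds.
hsa-miR-17-5p: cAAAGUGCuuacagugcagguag
hsa-miR-20a-5p: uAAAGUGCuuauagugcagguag
hsa-miR-18a-5p: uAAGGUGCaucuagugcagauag
hsa-miR-19a-3p: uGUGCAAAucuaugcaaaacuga
hsa-miR-19b-3p: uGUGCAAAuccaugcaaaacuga
hsa-miR-92a-3p: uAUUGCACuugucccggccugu
The seed was identical in miR-17 and miR-20a, and in miR-19a and miR-19b, while miR-18a and miR-92a each had a seed of their own. The 2 microRNAs of DLEU2 shared 1 seed.
hsa-miR-15a-5p: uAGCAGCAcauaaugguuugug
hsa-miR-16-5p: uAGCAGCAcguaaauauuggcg
H19 is the host of miR-675 and MEG3 of miR-770.

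All 8 loci held at least 1 MYCN summit, and 6 of the 8 held a summit with a fold enrichment of at least 10. Fold enrichment is the authors' ratio of the ChIP pileup to the local input background at a summit, with 1 added to both. For comparison, 23.8% of consecutive 25-kb bins along chromosomes 1 to 22 and X held a summit, and 5.46% held a summit of that strength. With 50-kb bins 37.2% held a summit. The windows run from 23 to 164 kb, so neither bin has their length. The bins also include gene-free and unmappable sequence, while each window was drawn around a gene, so the bins are not a matched background. Over the 59 summits the median fold enrichment was 6.89, with quartiles of 3.75 and 9.28, against 5.35 with quartiles of 3.90 and 7.54 for the whole list. The interval of the member median, 4.99 to 7.94, includes the median of the list. A fold enrichment of at least 10 was reached by 14 of the 59 summits, which is 23.7% (exact 95% binomial interval 13.6 to 36.6), against 12% of the list. The binomial interval covers counting error only, and summits of 1 peak interval are not independent sites. Of these 14 summits, 5 lay at MIR17HG, 3 at DLEU2, 2 each at MALAT1 and NEAT1, and 1 each at GAS5 and H19. Without MIR17HG the share was 17.6% (8.40 to 30.9), an interval that includes the share of the list.

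**Figure D1:**
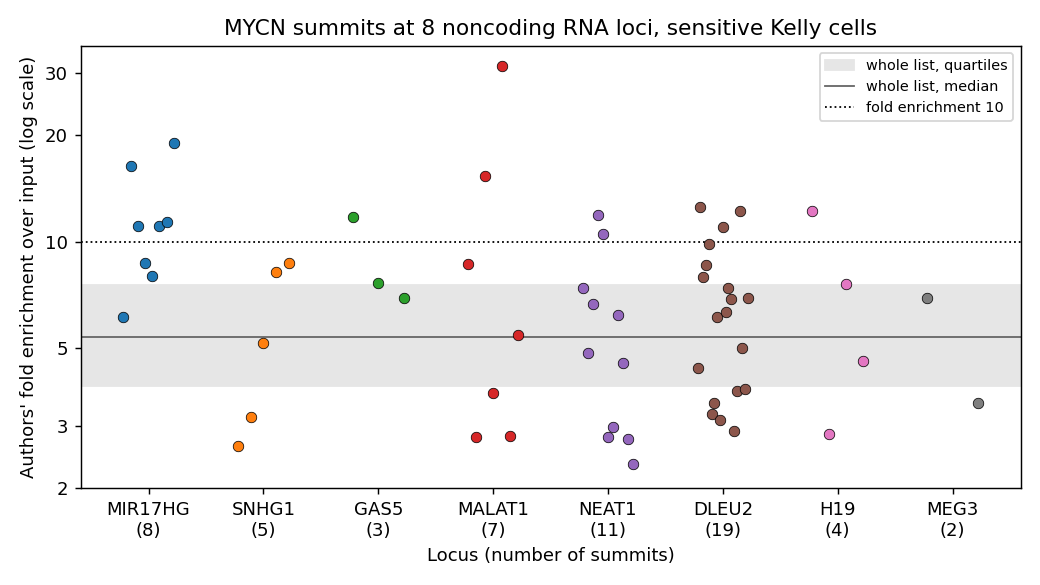
Authors' fold enrichment over input (log axis) of each of the 59 MYCN summits, by locus, in genomic order within a locus, with the median and quartiles of the whole list as a line and a band. At MIR17HG all 8 summits lie above the list's median of 5.35, the strongest single value is 31.5 at MALAT1, and SNHG1 and MEG3 have no summit at 10 or more.

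The number of ChIP fragments over a summit and its local background were recovered from the authors' fold enrichment and p-value. ChIP fragments are given before scaling. Fold enrichment uses 0.641 times their number, so it is lower than the ratio of the printed values. The 59 summits had a median of 84 ChIP fragments over a background of 8.26 input fragments, against 63 over 7.56 for the whole list. The background of the members ran from 2.23 to 36.0 input fragments. The lowest background in the list, 1.61, was taken as the genome-wide mean, which was not computed separately. No summit of the list had more than 280 ChIP fragments, and the top summits of MIR17HG, MALAT1, GAS5, SNHG1 and NEAT1 reached 265, 261, 244, 242 and 239, or 85.4% to 94.6% of it. That number is 2 times 140, the width in bp of the narrowest interval, so values close to it may be held down by an upper bound in the processing, which was not tested. The top values at DLEU2, H19 and MEG3 were lower, 175, 132 and 68 fragments. The order of the loci depended on the measure: the top summits of SNHG1 and GAS5 had 242 and 244 ChIP fragments, near that bound, while their fold enrichments were 8.68 and 11.7, over backgrounds of 17 and 12.5 input fragments.

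**Figure D2:**
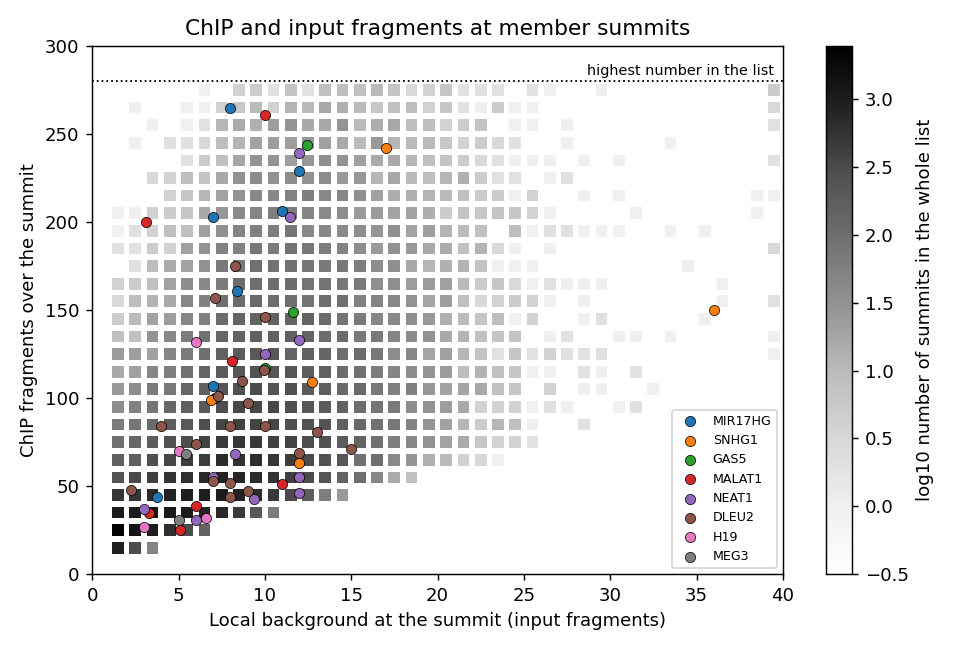
ChIP fragments over each summit against the local background in input fragments, for the 59 member summits (colours) over the whole list (grey squares, darker for more summits, with backgrounds above 40 drawn in the last column). The top summits of MIR17HG and MALAT1 sit at 265 and 261 ChIP fragments, below the dotted line at 280, and 1 SNHG1 summit stands far to the right at a background of 36.0.

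MIR17HG on chromosome 13 had the highest median fold enrichment of the 8 loci, 11.1, and all of its binding was in 1 interval. The interval ran from 91999217 to 92001741 and was 2525 bp wide, the 33rd widest of the 47765 intervals of the list. It held 8 summits, a number reached by only 21 intervals. An interval with 4 or more summits was found 3 times among the 33 intervals at these loci, 1 of them crossing the edge of the SNHG1 window, against 2.63% of all intervals. In genomic order the fold enrichments were 6.11, 16.4, 11.1, 8.70, 8.0, 11.1, 11.4 and 19, so that the last and the second summit were the strongest and the first was the weakest. The corresponding ChIP fragments were 44, 203, 206, 107, 100, 161, 229 and 265. Neighbouring summits were a median of 304 bp apart.

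The strongest MIR17HG summit, at 92001372, had a −log10 q of 150.8 and lay in the top 0.964% of the list by fold enrichment and the top 0.22% by ChIP fragments. Taking the gene start as the position 10 kb inside the window, which is accurate to about 1 kb, the 8 summits lay from 0.683 kb before to 1.37 kb after it. On GRCh38 the RefSeq gene of miR-17, the first microRNA of the cluster, begins 2.92 kb after the MIR17HG start. The summits thus covered the start and the first part of the transcript, and none lay as far along as the microRNA genes. The surroundings were almost empty: the 1 Mb on each side held 8 summits in all, or 4.0 per Mb, and the nearest summits outside the window lay 2058 kb before it and 33.8 kb after it.

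DLEU2 had the most summits, 19, in 9 intervals of a window that is the longest of the 8. They formed 4 groups separated by more than 3 kb. The first group, from 0.264 kb before to 1.63 kb after the approximate gene start, consisted of 7 summits in 1 interval from 50697968 to 50700480 on chromosome 13. That interval was 2513 bp wide, the 36th widest of the list, and its fold enrichments ran from 2.91 to 12.2 with a median of 6.32. Its strongest summit, at 50699901, had 175 ChIP fragments over a background of 8.26.

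A second group of 6 DLEU2 summits lay 43.1 to 45.3 kb after the start. Its strongest summits were at 50656874 with a fold enrichment of 11 and at 50654651 with 9.85, over low backgrounds of 4 and 2.23 input fragments. RefSeq annotates a second DLEU2 start 43.5 kb after the first on GRCh38, and its promoter entry overlaps that of DLEU1, a noncoding gene on the opposite strand, by 227 bp. Another group, of 4 summits, 128.4 to 129.5 kb after the start, held the strongest DLEU2 summit, at 50570884 with a fold enrichment of 12.5 and 157 ChIP fragments. On GRCh38 the protein-coding gene TRIM13, which encodes a ubiquitin ligase, spans 107.1 to 128.5 kb after the DLEU2 start. The microRNA gene MIR3613 begins at 129.0 kb. Binding in this group cannot be assigned to any 1 of these genes. The last 2 summits lay 4.55 and 4.84 kb before the start, with fold enrichments of 3.82 and 6.92. No summit was listed between 45.3 and 128.4 kb, a stretch in which RefSeq places MIR15A and MIR16-1, from 76.3 to 76.6 kb after the start on GRCh38. Distances were compared within each build and no position was carried from one to the other.

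Promoter sequences of the loci with a summit near the start are shown to set the E-box letters beside the binding. Each RefSeq entry (GRCh38.p14) holds 250 bases before and 50 bases from the annotated start, printed along the direction of transcription. Capitals mark a match on either strand to the E-box CACGTG or to its variants. The first variant searched was CATGTG (read as CACATG on the other strand). The other variant was CACGCG (read as CGCGTG on the other strand). No match overlapped another. Of the 8 genes, 7 had an entry, with 11 entries in all, and NEAT1 had none. Among all 35116 promoter entries of the table, 7.26% held CACGTG, 11.1% held CATGTG and 11.4% held CACGCG.
MIR17HG, plus strand, chr13:91347437-91347736: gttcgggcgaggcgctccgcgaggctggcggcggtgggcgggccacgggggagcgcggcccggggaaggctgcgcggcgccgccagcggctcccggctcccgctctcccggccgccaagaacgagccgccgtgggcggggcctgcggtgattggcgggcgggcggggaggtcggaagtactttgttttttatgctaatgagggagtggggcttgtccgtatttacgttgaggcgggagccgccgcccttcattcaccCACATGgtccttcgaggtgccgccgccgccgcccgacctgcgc
DLEU2 first start, minus strand, chr13:50125492-50125791: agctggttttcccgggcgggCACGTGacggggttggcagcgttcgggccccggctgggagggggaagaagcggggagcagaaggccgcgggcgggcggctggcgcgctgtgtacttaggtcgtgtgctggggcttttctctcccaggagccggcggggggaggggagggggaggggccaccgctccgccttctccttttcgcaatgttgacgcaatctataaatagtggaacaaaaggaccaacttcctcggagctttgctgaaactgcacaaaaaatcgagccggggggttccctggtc
DLEU2 second start, minus strand, chr13:50081992-50082291: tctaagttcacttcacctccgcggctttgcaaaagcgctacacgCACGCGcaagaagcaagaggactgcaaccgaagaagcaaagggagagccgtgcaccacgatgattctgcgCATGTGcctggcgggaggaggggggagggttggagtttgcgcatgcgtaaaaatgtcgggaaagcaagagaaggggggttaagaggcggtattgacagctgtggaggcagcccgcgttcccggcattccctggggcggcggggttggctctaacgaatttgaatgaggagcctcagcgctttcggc
SNHG1, minus strand, chr11:62855836-62856135: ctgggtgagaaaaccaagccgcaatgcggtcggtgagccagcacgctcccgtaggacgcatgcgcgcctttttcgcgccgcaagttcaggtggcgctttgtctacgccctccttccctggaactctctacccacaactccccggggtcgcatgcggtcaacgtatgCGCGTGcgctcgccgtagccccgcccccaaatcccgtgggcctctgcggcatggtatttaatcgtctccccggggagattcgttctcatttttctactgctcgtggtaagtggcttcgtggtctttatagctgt
GAS5, minus strand, chr1:173868996-173869295: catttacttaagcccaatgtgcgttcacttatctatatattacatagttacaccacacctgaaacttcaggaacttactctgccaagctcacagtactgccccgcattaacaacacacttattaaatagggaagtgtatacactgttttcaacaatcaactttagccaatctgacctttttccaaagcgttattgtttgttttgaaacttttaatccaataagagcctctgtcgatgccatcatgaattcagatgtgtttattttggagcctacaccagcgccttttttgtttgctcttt
MALAT1 first start, plus strand, chr11:65497488-65497787: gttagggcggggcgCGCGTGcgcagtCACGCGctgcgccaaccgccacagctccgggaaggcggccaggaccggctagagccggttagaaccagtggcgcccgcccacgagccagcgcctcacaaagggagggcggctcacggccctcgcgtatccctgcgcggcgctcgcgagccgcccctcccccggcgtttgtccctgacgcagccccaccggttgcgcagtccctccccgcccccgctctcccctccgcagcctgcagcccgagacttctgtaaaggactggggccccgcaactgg
MALAT1 second start, plus strand, chr11:65498795-65499094: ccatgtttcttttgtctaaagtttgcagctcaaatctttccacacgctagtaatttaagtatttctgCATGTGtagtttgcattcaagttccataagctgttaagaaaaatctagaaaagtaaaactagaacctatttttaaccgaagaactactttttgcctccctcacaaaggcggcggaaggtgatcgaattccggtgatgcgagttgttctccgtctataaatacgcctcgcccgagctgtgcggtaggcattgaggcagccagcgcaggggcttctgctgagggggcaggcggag
The only CACGTG among the 11 entries was in the first DLEU2 promoter, where it begins 230 bases before the start. The second DLEU2 promoter held 1 CATGTG and 1 CACGCG match, and MIR17HG held 1 CATGTG match (as CACATG), 7 bases after the start. SNHG1 held 1 CACGCG match and the first MALAT1 entry held 2. The second MALAT1 entry held 1 CATGTG match, 183 bases before its start. No match was found in the entries of GAS5, H19 and MEG3. A match is a description of the letters and was not tested as a binding site, and no match says only that these letters are not in this window.

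SNHG1 on chromosome 11 had 5 summits in 3 intervals. The pair at the gene start, in the interval from 62623001 to 62623922, had fold enrichments of 8.21 at 62623234 and 8.68 at 62623575, 0.766 and 0.425 kb after the approximate start. The second of them had 242 ChIP fragments, in the top 0.948% of the list, over a background of 17 input fragments, and by fold enrichment it was in the top 17.8%. RefSeq places 9 snoRNA genes within SNHG1, and its promoter entry overlaps by 277 bp that of SLC3A2, a protein-coding gene on the opposite strand that encodes the heavy chain of amino acid transporters. Binding at this shared start cannot be assigned to either gene.

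The other 3 SNHG1 summits lay 14.4 to 14.8 kb after the start, at the far end of the window. Their fold enrichments were 5.16, 3.19 and 2.63. The weakest, at 62609151, had 150 ChIP fragments over 36.0 input fragments, 22.4 times the lowest background in the list. On GRCh38 the next genes in this direction are WDR74, which is protein-coding, and within it RNU2-2, a U2 spliceosomal RNA gene that lies 14.1 to 14.3 kb after the SNHG1 start. The interval of this summit crosses the edge of the window, and its strongest summit, with a fold enrichment of 13.4 over 6.16 input fragments, lay 0.34 kb outside and was not counted.

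GAS5 on chromosome 1 had 3 summits in 1 interval, from 173836436 to 173837971, and no other within its window. Their fold enrichments were 11.7 at 173836982, 7.65 at 173837370 and 6.91 at 173837752, at 1.02, 0.63 and 0.248 kb after the approximate start. All 3 lay above the list's median of 5.35. The strongest had 244 ChIP fragments over 12.5 input fragments and a −log10 q of 106.9. GAS5 holds 11 snoRNA genes in RefSeq. On GRCh38 it overlaps ZBTB37, a protein-coding gene of the zinc finger and BTB domain family on the opposite strand, whose start in the promoter table lies 0.665 kb inside GAS5. The promoter entries of these genes do not overlap, but the summits lie too close to both starts to be assigned to 1 of the genes. The nearest summits outside the window were 28.6 kb before and 143.0 kb after it on the chromosome.

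MALAT1 on chromosome 11 held the strongest summit of the 8 loci. At 65266496, 1.5 kb after the approximate start, the fold enrichment was 31.5, which ranked 54 of 64657. Of all summits, 0.778% reached 20 or more, and this was the only one among the 59 to do so. It had 200 ChIP fragments over a background of only 3.11 input fragments. A summit at the start itself, at 65265069, had more ChIP fragments, 261, but a fold enrichment of 15.3, over a background of 10 input fragments. By ChIP fragments the summit at the start was in the top 0.3% of the list, and the one of highest fold enrichment in the top 3.64%. RefSeq annotates a second MALAT1 start 1.31 kb after the first on GRCh38.

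The other MALAT1 summits were weaker. A summit between these, at 65266016, had a fold enrichment of 3.72. The remaining values were 8.62 at 65255396 and 2.79 at 65259339, which lay 9.60 and 5.66 kb before the start. Values of 2.81 and 5.45 were found at 65274434 and 65275134, 9.43 and 10.1 kb after the start, near or beyond the end of the gene. The antisense gene TALAM1 spans 1.57 to 9.69 kb after the MALAT1 start on GRCh38, and MALAT1 itself ends at 8.78 kb. On GRCh38 the noncoding gene LINC02736, on the opposite strand, has its near end 9.65 kb before the MALAT1 start. All 7 MALAT1 summits were alone in their intervals, unlike the summits of MIR17HG and GAS5, which shared 1 interval each.

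NEAT1, whose approximate start lies 75 kb before that of MALAT1 on the same chromosome, had 11 summits in 6 intervals. The strongest were 65189785 and 65190190, with fold enrichments of 11.9 and 10.5 and with 239 and 203 ChIP fragments, 0.215 kb before and 0.19 kb after the approximate start. The third strongest was 65183981, 6.02 kb before the start, with a fold enrichment of 7.38. The other 8 had values from 2.35 to 6.64. A group of 3 summits lay before the start and 4 within 2 kb of it, a further pair lay 4.60 and 5.03 kb after it, and the rest of the gene body held none. The last pair, at 32.6 and 32.8 kb near the edge of the window, had fold enrichments of 2.75 and 2.35. On GRCh38 NEAT1 ends 22.7 kb after its start, and the transcribed pseudogene FAUP4 spans 32.5 to 44.2 kb after it. This pair cannot be assigned to either gene.

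H19 had 4 summits, and none lay within 2 kb of its approximate start. The strongest, at 2009529 on chromosome 11, had a fold enrichment of 12.2 with 132 ChIP fragments over 6 input fragments, and lay 9.47 kb after the start, past the end of the gene. A summit at 2012188 had 7.60 and lay 6.81 kb after the start. The values at 2009989 and 2021119 were 2.84 and 4.58, the second with 27 ChIP fragments and 2.12 kb before the start. The RefSeq gene is 6.09 kb long on GRCh38 and the window allows for 3 kb, so these distances hold for the shorter gene only. On GRCh38 the protein-coding gene MRPL23 runs from 13.7 kb before to 53.9 kb after the start of the longer H19 gene. The noncoding genes LINC01219 and MRPL23-AS1 lie 7.80 to 10.2 kb and 11.3 to 18.1 kb after that start. The strongest summit cannot be assigned to any 1 of these genes.

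MEG3 on chromosome 14 had the weakest binding of the 8 loci by number and by top value. Its 2 summits, at 101303971 and 101317662, had fold enrichments of 6.91 and 3.48 with 68 and 31 ChIP fragments. They lay 12 and 25.7 kb after the approximate start, inside the gene, and none was listed at the start. On GRCh38 the miR-770 gene begins 26.3 kb after the MEG3 start. MEG3 was also the only locus with a lower summit density than its surroundings, 35.7 per Mb in the window against 57 per Mb in the 1 Mb on each side.

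**Figure D3:**
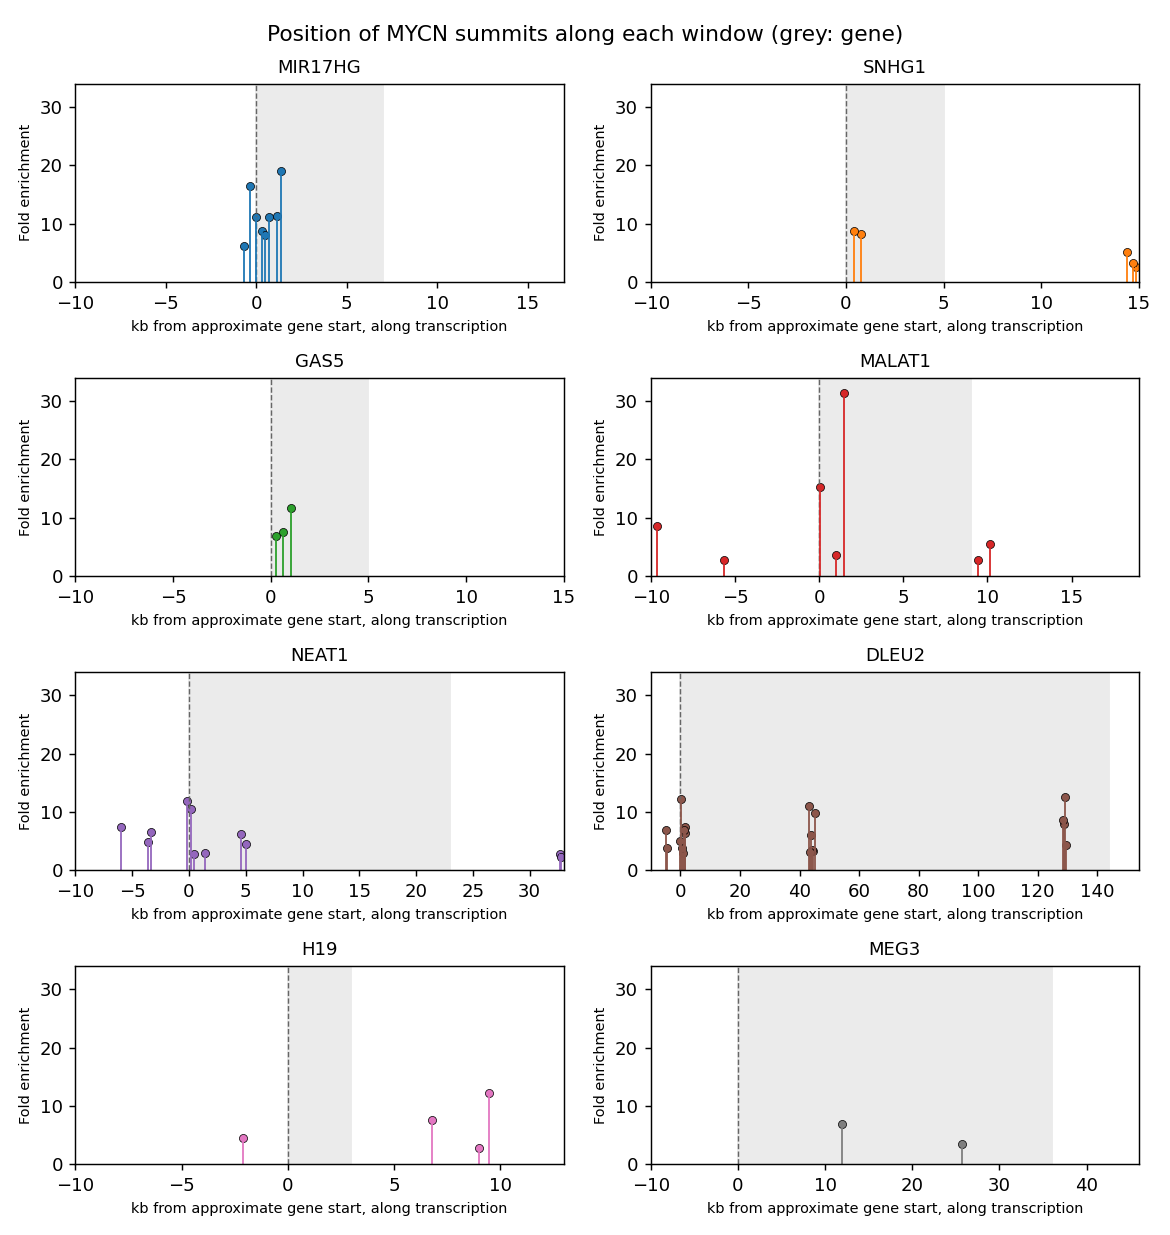
Fold enrichment (vertical axis) of each summit against its distance in kb from the approximate gene start, along the direction of transcription, with 1 panel per locus and the gene shaded by its length in the window. Summits gather at the start of MIR17HG, SNHG1, GAS5, MALAT1, NEAT1 and DLEU2, and DLEU2 has further groups near 44 and 129 kb. H19 and MEG3 have none within 2 kb of the start, at H19 for the shorter gene only.

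Pooled over the loci, summits near the gene start had a higher median than the other summits of the windows, but this did not hold at each locus. A distance of 2 kb, chosen after the values were seen, put 27 summits of 6 loci near a start and 32 farther away. The median fold enrichment was 8.21 near the start and 4.99 farther away, and the median number of ChIP fragments was 117 and 65.5. A fold enrichment of at least 10 was reached by 11 of 27 and by 3 of 32 summits. MIR17HG and GAS5 had near summits only, and H19 and MEG3 had farther ones only, so the pooled medians also compare different loci. For H19 this holds for the start of the shorter gene only. Within a locus the median was higher near the start at SNHG1, with 8.44 near it and 3.19 farther away, at MALAT1, with 15.3 and 4.13, and at NEAT1, with 6.75 and 4.82. At DLEU2 it was lower, with 6.32 near the start and 6.51 farther away. The DLEU2 distances were taken from the first start only. Of the 12 farther summits there, 6 lay 43.1 to 45.3 kb after it, and RefSeq annotates a second start at 43.5 kb on GRCh38. At 5 of the 8 loci the strongest summit lay within 2 kb of the start, and the exceptions were DLEU2, H19 and MEG3. These are descriptions of 1 list, with no test, and 15 of the 27 summits came from the single intervals at MIR17HG and DLEU2.

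Compared with their surroundings, 7 of the 8 windows held more summits per Mb. The windows together held 150.5 summits per Mb, against 45.3 per Mb in the 1 Mb on each side and 21.3 per Mb over chromosomes 1 to 22 and X. MIR17HG had the largest contrast, with 296.3 per Mb in the window and 4.0 around it, but its 8 summits share 1 interval. SNHG1 had 200.0 and 57.5 per Mb, GAS5 120.0 and 10.5, DLEU2 115.9 and 25.5, and H19 173.9 and 55.5. MALAT1 and NEAT1 lie in a densely bound region, with 241.4 and 255.8 per Mb in their windows against 108.8 and 107.1 around them. The median fold enrichment of the window was above that of its surroundings at 5 of the 8 loci. It was 11.1 against 6.41 at MIR17HG, 7.65 against 5.55 at GAS5 and 6.09 against 5.27 at H19. The margin was smaller at MALAT1, with 5.45 against 5.10, and at SNHG1, with 5.16 against 5.06. At NEAT1 and DLEU2 the window was denser but its median was lower, 4.82 against 5.04 and 6.32 against 6.47. At MEG3 both density and median were lower, with medians of 5.19 and 5.82. Each window was drawn around a gene, while the surroundings were not, so they are not a matched background. The part of copy number and of mappable sequence in these densities was not tested.

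**Figure D4:**
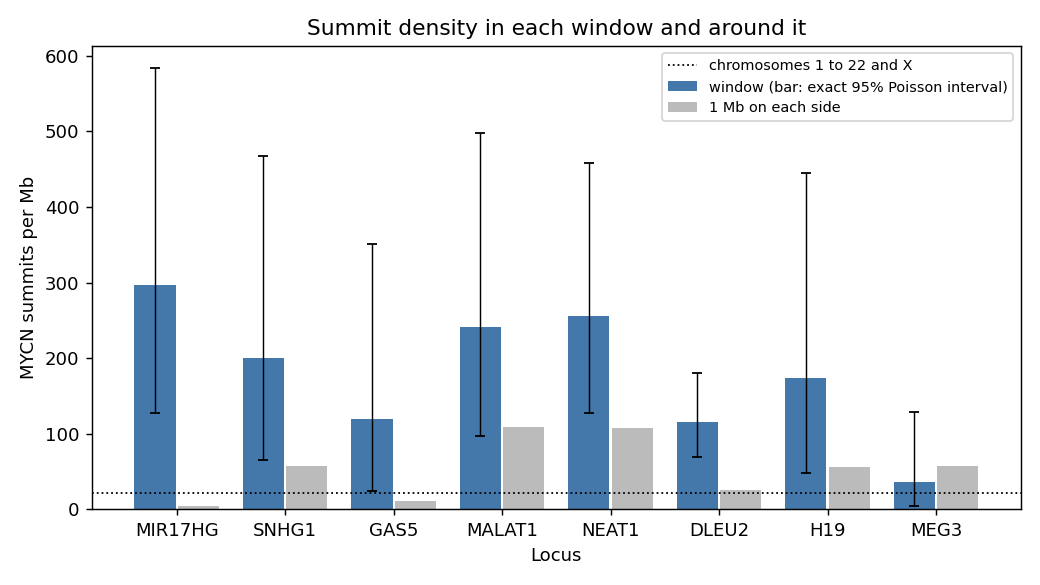
MYCN summits per Mb in each window (blue, with the exact 95% Poisson interval, which covers counting error only) and in the 1 Mb on each side (grey), with the value over chromosomes 1 to 22 and X as a dotted line. The window of MIR17HG stands at 296.3 against 4.0 around it, and MEG3 is the one locus with the lower value in the window. Summits that share an interval are not independent sites, and all 8 summits of MIR17HG lie in 1 interval.

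The number of members depended on the edges of the windows. With windows 5 kb shorter at each end the total of 59 summits was 49, and with windows 10 kb longer it was 75. SNHG1 had 2 and 10 summits under these choices in place of 5, H19 had 2 and 9 in place of 4, and MALAT1 had 5 and 12 in place of 7. At the lower edge of MALAT1 a summit 0.395 kb inside had a fold enrichment of 8.62, and one 0.439 kb outside had 3.65. At its upper edge a summit 0.289 kb outside had 4.22. The NEAT1 summit 0.22 kb inside its upper edge had 2.35, and at H19 a summit 1.57 kb outside the lower edge had 4.23. Farther outside, summits lay 14.4 kb above the SNHG1 window with a fold enrichment of 5.75, 16.0 kb above the NEAT1 window with 10.8, and 7.18 kb below the MEG3 window with 4.11. For MIR17HG, GAS5 and DLEU2 no summit lay within 25 kb outside either edge.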

How the data were processed

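Per the submitters' processing notes, the build was hg19 and the tools included MACS2 2.1.1, STAR 2.5.1b and SAMtools 1.3.1. The sources used here do not say how both ChIP samples of a state were combined or how duplicate reads were handled. In the peak list as deposited, each row is a summit with the authors' fold enrichment (ratio of ChIP pileup to local background), −log10 p-value, −log10 q-value and integer score (10 times the −log10 q without decimals). The files hold no read counts, so ChIP fragments and background were solved from fold and p by the MACS2 relations. A scale of 0.641 pileup units per ChIP fragment gave a whole number of fragments for all 64657 summits, within a tolerance of 0.0005 in −log10 p. The procedure was tested on simulated data.

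Summits (position counted from 1) were assigned to windows by position. All 8 loci were named, with every summit where there were 6 or fewer and otherwise the 3 of highest fold enrichment and the range of the rest, and further summits of MIR17HG, MALAT1, NEAT1 and DLEU2 were named after their values were seen. The members and lists were chosen with earlier results of these data known. Gene starts on hg19 were taken as 10 kb inside the window, with strands from RefSeq (NEAT1 from textbook knowledge). A list of further noncoding genes was not used here, for want of hg19 positions. Thresholds on q and fold, intervals in place of summits, other window lengths and loci left out were the alternatives. Python 3.11.15, numpy 2.4.6, pandas 2.3.3, scipy 1.17.1 and matplotlib 3.10.9 were used.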

Additional observations from a re-analysis of the deposited data

Results flagged for a closer look

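The input itself, which served as background and was not compared, had a strong local signal at the far edge of the SNHG1 window. The summit at 62609151 had a local background of 36.0 input fragments, where the lowest in the list was 1.61. Only 24 of all summits in the list, or 0.0371%, had as high a value. This background was the highest among the 59 summits, and the next was 17 at the SNHG1 start. Its part in the low fold enrichment of 2.63 at this summit follows from the ratio itself, and the cause of the input signal was not tested.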

How the results depend on the processing

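No paired analysis was possible because the replicates of a state share a peak list, which also means that leaving out a replicate could not be done. Of 47 alternatives for the summary values, 39 stayed within 1.5 times (counts) or inside the interval of the reported value (medians and densities). Some of the 39 were fixed in advance. Longer windows or counts per interval cannot empty a locus, and leaving out DLEU2 or MIR17HG gives 7 loci by construction. Identical lists also overlap fully, so the tally overstates how stable the values are. The total of 59 summits was 37 when a fold of 5 or more was required, and 33 with 1 count per interval or with intervals that overlap the windows. The median fold enrichment of 6.89 became 8.60 with a fold of at least 5, a threshold that removes low values by construction. The density ratio to the genome of 7.06 became 5.35 per interval, in both ways of counting, and 3.32 over the 1 Mb on each side. The median background of 8.26 became 7.0 with overlapping intervals. At least 1 summit remained at 8 of 8 loci under the q, fold and window alternatives. Leaving out MIR17HG was added after seeing the data and gave a median fold of 6.21. Per locus, 30 of 56 counts stayed within 1.5 times, 23 were lower and 3 higher. MEG3 kept 1 of 2 summits at a −log10 q of at least 5. The fewest ChIP fragments of any listed summit were 13, at a background of at most 1.68, and 33 among summits with a background from 8 to below 9, so the weakest listed binding differs with the background.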
